A study of Mus musculus with 6 samples.

Results

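The comparison set WT cells after 3 days of T helper type 2 (Th2) culture against naive WT CD4 T cells, 2 of the 6 libraries of the series. It was made over 20128 protein-coding genes out of 23091 gene symbols with a usable status in the deposited tables. Both groups came from wild-type mice (WT, C57/Bl6j) aged 7 weeks. The Th2 cells had grown for 3 days on plates coated with antibodies to CD3 and CD28, in RPMI medium with serum, an antibody that blocks interferon gamma, and 10 ng/ml of IL-4. The naive cells had not been cultured. The other groups used here are WT cells at day 6 of the same culture, and naive, day 3 and day 6 cells from NLRP3KO mice. These mice lack the inflammasome sensor NLRP3. The NLRP3KO day 6 library held an estimated 4013 fragments on the 20128 genes. It serves for levels and for 1 of the rescalings below. Each group was 1 library made from the RNA of 300000 cells, so the differences below have no replicate check and carry no p-values. Per the labels, ribosomal RNA was depleted for the Th2 libraries and mRNA was purified for the naive libraries, so culture and RNA selection changed together and cannot be told apart by design.

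A naive CD4 T cell is a small resting cell that circulates between blood and lymph nodes. Signals through its antigen receptor (CD3) and CD28 make it grow and divide, switch to glycolysis and take up amino acids. IL-4, acting through its receptor and the factor STAT6, then raises GATA3, the transcription factor that directs the Th2 fate, whose cells secrete IL-4, IL-5 and IL-13. IL-2, made by the activated cells, acts through STAT5 and supports the same programme.

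Levels are given as TPM, the deposited FPKM (fragments per kilobase of transcript, scaled to library size) rescaled so that the 20128 genes sum to 1000000 in each library. Differences are log2(TPM + 10), day 3 minus naive. Of the 20128 genes, 6778 reached 30 TPM in 1 of the 2 libraries and were kept. A gene is called when it is at least 2-fold apart on this scale and the deposited confidence bounds do not overlap. By this rule 442 genes were called higher at day 3 (6.52% of those kept) and 1343 lower (19.8%). However, 1156 of the 1343 were listed at 0 at day 3, mostly with bounds of 0 and 0. The day 3 library held an estimated 21135 fragments on these genes against 1377060 in the naive library, and 3 fragments on a transcript of 2 kb correspond to 135 TPM at day 3 and 1.69 TPM in naive cells. A rule added after seeing the data therefore read a 0 as up to 3 fragments. It left the 442 higher genes and called 272 lower (4.01%), 85 of them listed at 0 at day 3. A gene listed at 0 that had no transcript length could not be called by it. "Called" below means this rule. Exact Poisson limits of the estimated fragments, another rule added after seeing the data, called 731 genes higher and 176 lower, of which 371 and 166 were also called by the rule used here. These limits need a transcript length, which 6 of the 442 and 4 of the 272 lacked, so 65 higher and 102 lower calls were lost with them.

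The scale itself was uncertain. The median difference over all 6778 kept genes was 0.48, and 0.76 over the 5441 above 0 in both libraries. Under the planned rule 24.8% of the calls were higher, and 4 other rescalings moved the day 3 level by between -0.19 and -1.06 on the log2 scale, with 20.7%, 11.2%, 8.998% and 7.22% of calls higher. Under the rule used here the balance of calls turned with the scale, from 442 higher and 272 lower to 382 and 361, 247 and 708, 212 and 868, and 184 and 1047. Of the 442 higher genes 184 were called under each of these 5 rescalings and are described below as robust to scaling. Since the 4 other rescalings lower the day 3 level, no lower call could be lost under them, so for lower genes the count that was also called with exact limits is given instead. As deposited, without rescaling, 24 genes were higher and 6936 lower, and the genes of the comparison summed to an FPKM of 199664 in naive cells and 18300 at day 3. In the same tables Rn45s, the precursor of ribosomal RNA, had an FPKM of 10783 in naive cells and 57645 at day 3.

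**Figure D1:**
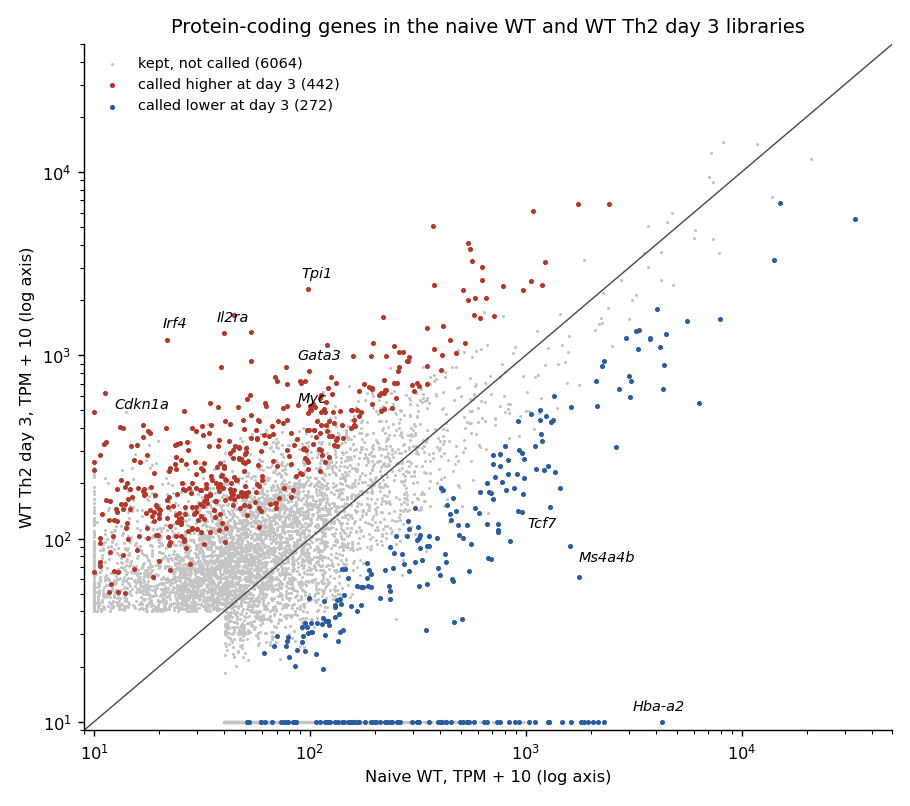
Level of each kept gene in the naive WT library (x axis, TPM + 10, log axis) and in the WT Th2 day 3 library (y axis, TPM + 10, log axis), with 442 genes called higher in red, 272 called lower in blue and the others in grey. Irf4, Cdkn1a and Il2ra lie far above the line of equal levels, while Ms4a4b and Tcf7 lie below it and the row of points at the bottom is listed at 0 at day 3.

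Transcripts that mark the naive, resting state were lower at day 3. Of 28 kept genes of a list of naive and quiescence genes, 13 were called lower and 0 higher, 11 of them also with exact limits, and the median difference was -1.64 against 0.48 over all kept genes (-0.80 with zeros placed at 3 fragments). Tcf7 (chromosome 11, 52066106 to 52095752 on mm9), a transcription factor of naive and memory-like T cells, went from 912 TPM in naive cells to 131 TPM at day 3 (bounds 807 to 912 and 0 to 244), a difference of -2.71. S1pr1, the receptor that lets T cells leave lymph nodes, went from 480 to 94.1 TPM (-2.23), and Klf2, a factor that drives S1pr1, from 474 to 108 TPM (-2.03). In each of these 3 genes the upper bound at day 3 lay below the lower bound in naive cells.

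Several regulators of rest and survival moved the same way. Il7r, the receptor for the survival cytokine IL-7, was at 303 and 88.6 TPM (-1.67), and Btg1, an antiproliferative factor, at 683 and 167 TPM (-1.97). Txnip, which restrains glucose uptake, was at 574 and 136 TPM (-1.997), and Il6ra, the IL-6 receptor chain, at 278 and 56.6 TPM (-2.11). Foxp1, a factor that keeps naive T cells quiescent, was at 315 and 78.9 TPM (-1.87), Slfn2, needed for T cell quiescence, at 747 and 238 TPM (-1.61), and Ets1 at 787 and 311 TPM (-1.31). Dapl1 was at 1470 TPM in naive cells, above its own upper bound of 1176, and listed at 0 at day 3, and Cd27, a costimulatory receptor, was at 394 TPM and 0. The call of Cd27 was lost with exact Poisson limits. Not every naive gene was lower. Ccr7, the chemokine receptor of lymph node homing, stood at 635 and 544 TPM (-0.22), Lef1, a partner of Tcf7, at 351 and 196 TPM (-0.81), Foxo1 at 209 and 117 TPM (-0.79), and Satb1, a chromatin organiser, at 346 and 537 TPM (0.62). None of these 4 was called.

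Genes induced through the antigen receptor were among the highest of all. Of 31 kept activation genes 11 were called higher and 0 lower, 8 of them robust to scaling, with a median of 2.58. Irf4 (chromosome 13, 30841127 to 30858796 on mm9), a transcription factor whose level follows the strength of receptor signalling, was at 11.7 TPM in naive cells (bounds 8.42 to 14.7) and 1196 TPM at day 3 (888 to 1487), a difference of 5.80 and the largest among genes above 0 in both libraries. Batf, which binds DNA together with Irf4, went from 79.8 to 716 TPM (3.02, not robust to scaling). Bcl2l1, encoding the survival protein Bcl-xL, went from 16.0 to 488 TPM (4.26). Myc (chromosome 15, 61816896 to 61821916), the driver of T cell growth, went from 68.0 to 683 TPM (3.15, bounds at day 3 322 to 1044). Egr2 was at 12.2 and 225 TPM (3.40), Tnfsf11, the cytokine RANKL, at 9.05 and 216 TPM (3.57), and Tnfrsf4, the costimulatory receptor OX40, at 89.0 and 807 TPM (3.04). All but Batf were called under each rescaling.

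Other activation genes did not differ by the rule. Cd69, an early activation antigen, stood at 94.8 and 184 TPM (0.89), Cd44, a marker of antigen-experienced cells, at 51.9 and 63.7 TPM (0.25), and Icos at 60.2 and 58.2 TPM (-0.04). Junb, a component of AP-1, was at 787 and 481 TPM (-0.70), and Cd40lg, the helper ligand, at 80.6 TPM and listed at 0 at day 3, without a call. Il2 was listed at 0 in naive cells and at 114 TPM at day 3, with bounds of 0 to 288.

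Of 23 kept genes of IL-2 and IL-4 signalling, 13 were called higher (11 robust to scaling) and 2 lower (both also with exact limits), with a median of 2.20. Il2ra (chromosome 2, 11564419 to 11614821 on mm9), the high-affinity chain of the IL-2 receptor, was at 29.9 TPM (24.2 to 35.4) and 1309.5 TPM (980 to 1634), a difference of 5.05. Il2rb, the chain shared with the IL-15 receptor, went from 85.2 to 709 TPM (2.92), and Il4ra, the IL-4 receptor chain, from 122 to 695 TPM (2.42). Il2rg, the common chain of these receptors, and Il7r were the 2 members called lower. Il2rg fell from 1330 to 432 TPM (-1.60). The receptor chains thus did not move in 1 direction.

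Downstream of these receptors, Socs2 was at 11.5 and 392 TPM (4.22), Cish at 13.8 and 314 TPM (3.77) and Socs1 at 65.1 and 506 TPM (2.78, not robust to scaling). These 3 are inhibitors of cytokine signalling that STAT factors induce. The kinase genes Pim1 and Pim2, also STAT5 targets, were at 110 and 1126 TPM (3.25) and at 60.6 and 716 TPM (3.36). Lif, a cytokine gene, was at 3.33 and 198 TPM (3.96), and Jak2 at 52.0 and 537 TPM (3.14). Stat5b was called, at 71.6 and 365 TPM (2.20), while Stat6, the factor through which IL-4 acts, was not, at 145 and 124 TPM (-0.22), nor was Jak1, at 385 and 228 TPM (-0.73).

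Of 24 genes of the Th2 lineage list, 11 were kept, and 5 of these were called higher and 0 lower, all 5 robust to scaling, with a median of 3.41. Gata3 (chromosome 2, 9778705 to 9800227 on mm9) was at 67.8 TPM in naive cells (56.2 to 78.7) and 855 TPM at day 3 (563 to 1125), a difference of 3.47. In FPKM as deposited the same values were 13.5 and 15.6. Nfil3, a factor that acts on Th2 cytokine genes, was at 3.62 and 392 TPM (4.88), Ccr4, a chemokine receptor of Th2 cells, at 7.55 and 274 TPM (4.02), and Gfi1, a repressor that supports Th2 cell growth, at 8.15 and 133 TPM (2.98). Ecm1, a secreted protein made by Th2 cells, was at 49.6 and 362 TPM (2.64), but its bounds overlapped, at 38.2 to 61.0 and 51.7 to 671.

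The Th2 cytokines themselves were near or under the detection limit at day 3. Il4 (chromosome 11, 53425963 to 53432167 on mm9) was listed at 0 in naive cells and at 206 TPM at day 3, with bounds of 0 to 1030. Il9, also made by cells grown with IL-4, was at 0 and 232 TPM (0 to 506). Neither was called here, since the bounds touch 0, but both were called higher with exact Poisson limits. On transcripts of 590 and 536 bases these levels stand for fewer than 3 fragments each. At WT day 6 both were listed at 0. In NLRP3KO, Il4 was at 0 in each library and Il9 at 529 TPM at day 3. Il5, Il13 and Areg were listed at 0 in both libraries, and Il10, at 1.94 TPM in naive cells, was listed at 0 at day 3. Maf, a factor that activates the Il4 gene, was at 23.7 TPM in naive cells and listed at 0 at day 3, which was not a difference at this depth. Of the 24 list genes, 11 were above 0 at day 3.

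Genes of other T helper fates are set beside all kept genes, of which 6.52% were called higher and 4.01% lower. Among kept genes, 4 of the Th1 list and 4 of the follicular helper list were listed at 0 at day 3 and not called. Of 14 Th1 genes 6 were kept and 1 was called higher, Il12rb1, a chain of the IL-12 and IL-23 receptors, at 3.25 and 398 TPM (4.94). Tbx21, which encodes the Th1 factor T-bet, and Ifng were at 4.15 and 8.50 TPM in naive cells and listed at 0 at day 3. Of 10 Th17 genes 0 were kept. Of 8 kept Treg genes 0 were called in either direction, and Foxp3, which defines these cells, was at 46.6 TPM in naive cells and listed at 0 at day 3 with an upper bound of 97.1. Of 7 kept follicular helper genes 1 was called, Cd200, at 14.1 and 164 TPM (2.85, not robust to scaling).

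**Figure D2:**
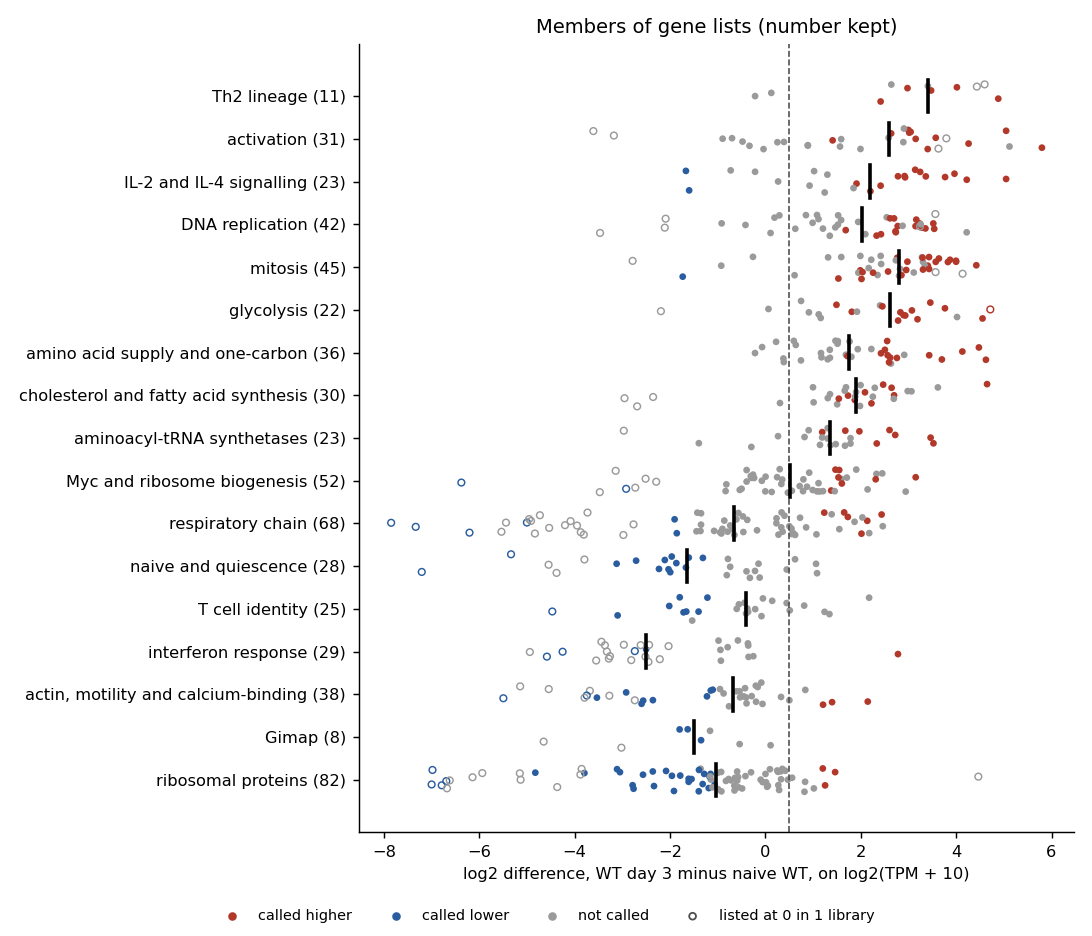
Difference (x axis, log2(TPM + 10), WT day 3 minus naive WT) of each kept member of 17 gene lists (y axis, number kept in brackets), with called genes in red or blue, others in grey, open circles for genes listed at 0 in 1 library, a black bar at the list's median and a dashed line at 0.48, the median of all kept genes. The lists from Th2 lineage to aminoacyl-tRNA synthetases have medians right of the dashed line, and the naive, T cell identity, interferon, actin, Gimap and ribosomal protein lists left of it.

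Genes of cell division were higher at day 3. Of 42 kept DNA replication genes 15 were called higher and 0 lower (11 robust to scaling, median 2.02), and of 45 kept mitosis genes 22 were called higher (17 robust to scaling) and 1 lower, with a median of 2.80. Promoter sequence is shown for members of both lists, since replication genes are known targets of E2F factors and mitotic genes of complexes that bind the CHR element. The mitosis stretches, and the search for their motif, were chosen after the values were seen. All stretches lie upstream of the annotated start, on GRCm38.p6, from RefSeq, which gave a promoter for 16106 of the 20128 genes. The motif is in capitals with 20 bases on each side where the window allows. For E2F the search took TTTCCCGC, TTTCGCGC, TTTGCCGC and TTTGGCGC on either strand of the 250 bases before the start.
Cdc6 (chr11:98907993-98908040, plus strand): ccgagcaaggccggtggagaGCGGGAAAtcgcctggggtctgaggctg
Mcm5 (chr8:75109336-75109383, plus strand): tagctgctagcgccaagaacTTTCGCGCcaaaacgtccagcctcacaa
Pola1 (chrX:93632266-93632313, minus strand): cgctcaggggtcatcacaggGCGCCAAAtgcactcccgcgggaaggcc
Mcm6 (chr1:128359725-128359772, minus strand): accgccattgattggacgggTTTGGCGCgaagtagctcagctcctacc
Mcm7 (chr5:138172021-138172068, minus strand): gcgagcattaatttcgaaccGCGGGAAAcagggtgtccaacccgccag

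These 5 were the called replication genes with such a match, out of 12 with a promoter (41.7%). Of the whole list 9 of 39 promoters held one (23.1%), against 450 of all 16106 (2.79%) and 28 of 358 called higher genes (7.82%). A match is a description of the letters and no evidence of binding. For mitotic genes the search took TTTGAA on either strand, a short motif.
Kif11 (chr19:37376343-37376381, plus strand): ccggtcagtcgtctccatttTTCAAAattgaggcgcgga
Mki67 (chr7:135716452-135716497, minus strand): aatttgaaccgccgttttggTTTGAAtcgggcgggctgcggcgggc
Ncapd2 (chr6:125191684-125191729, minus strand): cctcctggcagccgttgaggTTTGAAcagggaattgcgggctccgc
Ccnb2 (chr9:70421696-70421741, minus strand): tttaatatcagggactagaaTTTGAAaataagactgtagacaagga
Top2a (chr11:99024190-99024232, minus strand): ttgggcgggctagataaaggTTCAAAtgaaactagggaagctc
This motif was in 2562 of all 16106 promoters (15.9%), in 17 of 42 of the mitosis list (40.5%) and in 9 of 18 of its called higher genes with a promoter.

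Among the replication genes, Cdc6, which loads the helicase onto origins, was at 3.27 TPM in naive cells and 144 TPM at day 3 (3.54), and Rrm2, a subunit of ribonucleotide reductase, at 21.9 and 356 TPM (3.52). Pole, a subunit of the leading strand polymerase, was at 2.36 and 117 TPM (3.36), and Chaf1a, which places histones on new DNA, at 2.80 and 114 TPM (3.28). The helicase subunits Mcm5, Mcm6 and Mcm7 were at 37.1 and 304 TPM (2.73), 61.3 and 427 TPM (2.61), and 51.8 and 322 TPM (2.42, not robust to scaling), and Pola1, a primase-linked polymerase, at 7.63 and 104 TPM (2.70). Pcna, the sliding clamp, had the highest level of the list, at 246 and 812 TPM (1.68, not robust to scaling). Rpa3, at 101 TPM in naive cells, Pola2, at 33.2 TPM, and Rfc3, at 32.7 TPM, were listed at 0 at day 3 and not called.

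Among the mitotic genes, Aurkb, the kinase of the chromosomal passenger complex, was at 6.77 and 350 TPM (4.42), and Kif11, the motor that separates the spindle poles, at 6.37 and 252 TPM (3.998). Mki67, which coats mitotic chromosomes and is the usual marker of dividing cells, was at 24.3 TPM (21.0 to 27.5) and 537 TPM (404 to 673), a difference of 3.997. Plk1, a mitotic kinase, was at 2.70 and 176 TPM (3.87). Ncapd2, a condensin subunit, was at 18.4 and 393 TPM (3.83), Ccnb2, a mitotic cyclin, at 16.9 and 324 TPM (3.64), and Top2a, which untangles chromosomes, at 32.8 and 410 TPM (3.29). Tubb5 and Tuba1b, the tubulin genes of the highest level, were at 619 and 2570 TPM (2.04) and at 565 and 1650 TPM (1.53), and neither was robust to scaling. Smc4, another condensin subunit, was the exception, at 712 TPM in naive cells and 207 TPM at day 3 (-1.74). Cdk6, a kinase of early G1 phase, was also among the highest genes, at 4.78 and 311 TPM (4.44).

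Genes of glucose use showed the largest share of calls among the glycolysis, amino acid, cholesterol and respiratory lists. Of 22 kept glycolysis genes 13 were called higher and 0 lower, 11 of them robust to scaling, and the median was 2.62. Their summed level was 2737 TPM in naive cells and 21064 TPM at day 3. Hk2, the inducible hexokinase, was listed at 0 in naive cells and at 253 TPM at day 3 (131 to 377). Tpi1 (chromosome 6, 124760610 to 124764314 on mm9), triosephosphate isomerase, was at 88.4 and 2300 TPM (4.55), and Pkm2, pyruvate kinase, at 363 and 5064 TPM (3.76). Pgam1, phosphoglycerate mutase, was at 59.3 and 751 TPM (3.46), and Ldha, which makes lactate, at 529 and 4103 TPM (2.93). The glucose transporter gene Slc2a1, named after its value was seen, was at 27.9 and 336 TPM (3.19). Pdk1, which restrains entry of pyruvate into mitochondria, was at 138 and 145 TPM (0.06) and not called, and Eno3, the muscle enolase, was at 35.7 TPM in naive cells and listed at 0 at day 3.

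Genes of amino acid supply and one-carbon metabolism were also higher, with 13 of 36 kept genes called higher and 0 lower (9 robust to scaling, median 1.74). Asns, asparagine synthetase, was at 6.88 and 406 TPM (4.62). Psat1, an enzyme of serine synthesis, was at 28.5 and 848 TPM (4.48), and Shmt2, which passes the carbon of serine to folate in mitochondria, at 43.2 and 922 TPM (4.13). Slc7a5, the transporter of large neutral amino acids, was at 19.7 and 376 TPM. Atf5, a factor induced by amino acid shortage, was listed at 0 in naive cells and at 478 TPM at day 3 (154 to 801). Sesn2, a sensor of leucine induced by stress, was at 1.33 and 324 TPM (4.88).

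Of 30 kept genes of cholesterol and fatty acid synthesis, 9 were called higher and 0 lower, 4 of them robust to scaling, with a median of 1.89. Scd2, a fatty acid desaturase, was at 43.4 TPM (37.2 to 49.6) and 1329.8 TPM (1023 to 1637), a difference of 4.65. Fasn, fatty acid synthase, was at 29.97 and 240 TPM (2.65). Stard4, a carrier of cholesterol, was at 14.8 and 127 TPM (2.47, not robust to scaling), and its call was lost with exact Poisson limits.

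The machinery of protein synthesis gave a mixed picture. Of 23 kept aminoacyl-tRNA synthetase genes 8 were called higher and 0 lower (5 robust to scaling, median 1.36), led by Vars at 42.9 and 599 TPM (3.52) and Yars at 24.0 and 365 TPM (3.46). Of 52 kept genes of the Myc and ribosome biogenesis list 7 were called higher, 2 of them robust to scaling, and 2 lower, both also with exact limits, with a median of 0.51, close to that of all kept genes. Pa2g4, a growth-regulated nucleolar protein, was at 95.6 and 514 TPM (2.31), Npm1, nucleophosmin, at 776 and 2376 TPM (1.60) and Ncl, nucleolin, at 203 and 613 TPM (1.55), the last 2 not robust to scaling. An E-box, the Myc site CACGTG, was in the promoter of 0 of 5 called higher genes of this list and in 8.08% of all promoters. Of 41 kept translation factors 9 were called higher and 2 lower, of which 1 higher gene, Eif5a, at 615 and 3016 TPM (2.28), was robust to scaling. Eef2, the translocation factor, was at 1745 and 6705 TPM (1.94). The direction of this list turned with the scale, to 3 higher and 6 lower with the median ratio over 6 libraries, 2 and 8 with the trimmed mean, and 1 and 8 with the median ratio of the 2 libraries.

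Ribosomal protein genes stood lower, with 28 of 82 kept called lower (25 also with exact limits) and 3 higher, a median of -1.03, and none of the 3 higher robust to scaling. They share reads with many processed copies, so their values are uncertain. They took 21.7% of the levels in the naive WT library and 14.5% at day 3, against 13.9% in naive NLRP3KO and 14.3% in NLRP3KO day 3. The naive WT library thus stood apart from the other 3, and its part in the calls was not tested. Rplp1, an acidic protein of the ribosome stalk, was at 14986 TPM in naive cells and 6744 at day 3 (-1.15). Its naive value lay above its own bounds of 9119 to 9910 TPM, and its upper bound at day 3 was 9082. The naive WT value of Rpl41, 20971 TPM, also lay above its upper bound of 13460. Both genes count in the 21.7%. Rpl13a, which was called higher, was at 2420 and 6681 TPM (1.46). Of 68 kept respiratory chain genes 6 were called higher, 1 of them robust to scaling, and 6 lower, 3 of them also with exact limits (median -0.67, or -0.05 with zeros placed at 3 fragments), with Uqcrc1, a core subunit of complex III, at 103 and 599 TPM (2.44) and Atp5e, the epsilon subunit of the ATP synthase, at 2299 TPM and listed at 0 at day 3. The even split did not hold under the same 3 scales, which gave 2 higher and 13 lower, 2 and 17, and 1 and 21. The naive value of Atp5e lay above its own upper bound of 1564 TPM. Of 36 kept proteasome genes 0 were called higher and 3 lower.

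Many ribosomal and respiratory genes have short transcripts, and the difference changed with length. The length of a gene here is the median over its annotated protein-coding transcripts, such as 491 bases for Il4ra and 725 for Pkm2. It can be shorter than the transcript that was expressed. Over the 1453 kept genes with a length under 1000 bases the median difference was -0.05. Over the 998 from 1000 to 1500 bases it was 0.39, and over the 529 of 5000 bases or more it was 0.73. Without ribosomal proteins the first value was 0.04. In NLRP3KO cells, whose libraries were made in the same 2 ways, the medians of the shortest and the longest class were -0.37 and 0.38. The share of genes called higher in WT was 4.47% in the shortest class and 13.4% in the longest, beside 6.52% of all kept genes. The share called lower under the planned rule was 32.7% and 6.99%. The part of length in the calls, higher or lower, was not tested. By GC content the medians of 7 classes ranged from 0.35 to 0.64.

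**Figure D3:**
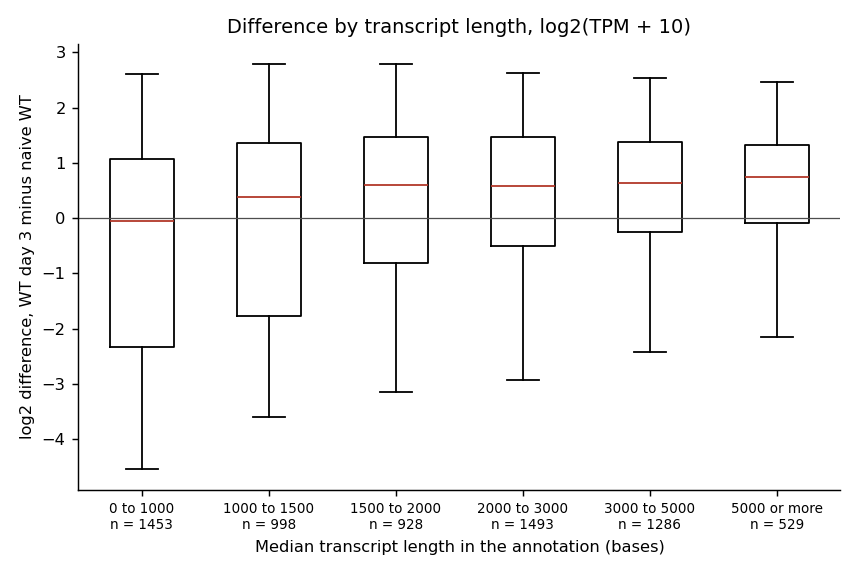
Difference between WT day 3 and naive WT (y axis, log2(TPM + 10)) of kept genes in 6 classes of median annotated transcript length (x axis, bases, with the number of genes). Boxes run from the lower to the upper quartile with the median in red, and whiskers from the 5th to the 95th percentile. The median rises from -0.05 in the shortest class to 0.73 in the longest, and the lower whisker is longest for short transcripts.

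Genes of T cell identity were partly lower. Of 25 kept, 8 were called lower and 0 higher, all 8 also with exact limits, with a median of -0.41. Cd3e, Cd3d, Cd3g and Cd247, chains of the antigen receptor complex, were at 1154 and 491 TPM (-1.22), 1229 and 458 TPM (-1.40), 2119 and 516 TPM (-2.02), and 661 and 68.2 TPM (-3.10). The naive values of the first 3 lay above their own upper bounds. Lck, the kinase that starts receptor signalling, was at 949 and 281 TPM (-1.72), and Lat, the adaptor it leads to, at 1181 and 332 TPM (-1.80). Cd4 itself was not called, at 546 and 368 TPM (-0.56), nor was Thy1, at 1257 and 1082 TPM (-0.22), so both defining markers of the sampled cells were present in both libraries. In bulk RNA, fewer cells of a type and less of an RNA per cell cannot be told apart.

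Genes of the actin skeleton and motility were lower in 10 of 38 kept cases and higher in 3, with 9 of the 10 also called with exact limits and 1 of the 3 robust to scaling (median -0.69). Tmsb4x, thymosin beta 4, which binds actin monomers and had the highest level of the list, was at 33510 and 5525 TPM (-2.60), and Tmsb10, its relative, at 6364 and 540 TPM (-3.54). S100a10, a partner of annexin A2, was at 1426 and 180 TPM (-2.92). These 3 transcripts are short. The naive values of Tmsb4x and S100a10 lay above their own upper bounds, 25504 and 1190 TPM. Vim, vimentin, was called higher, at 501 and 2250 TPM (2.15). Of 8 kept Gimap genes, GTPases of lymphocyte survival, 3 were called lower and 0 higher, with Gimap6 at 1099 and 308 TPM (-1.80) and Gimap4 at 1604 and 511 TPM (-1.63).

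Interferon response genes had a median of -2.50, but 18 of the 29 kept were listed at 0 at day 3, and with zeros placed at 3 fragments the median was -0.53. By the rule 4 were called lower and 1 higher. Igtp, an interferon-induced GTPase, was at 181 TPM in naive cells and listed at 0 at day 3, and its call was lost with exact Poisson limits. Ifi47 was at 382 and 59.2 TPM (-2.50). Socs1, which is also in the cytokine list, was the higher member.

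The 15 highest called genes included Cdkn1a (chromosome 17, 29227931 to 29237667 on mm9), the cell cycle inhibitor p21, at 1.26 TPM in naive cells (0 to 4.41) and 615 TPM at day 3 (255 to 1024), a difference of 5.79. Of 25 kept genes of the Bcl2 family and p53 list 5 were called higher and 0 lower. Of these, 3 were robust to scaling, Cdkn1a, Sesn2 and Bcl2l1. Bcl2, at 94.3 and 382 TPM (1.91), and Ccng1, a p53 target, at 94.1 and 379 TPM (1.90), were not. H2afx, the histone that marks DNA breaks, was at 34.5 and 1640 TPM (5.21). Its mRNA also exists in a form without a poly(A) tail, so the RNA selection bears on it directly. It had no transcript length here, so exact limits could not be computed for it. Pros1, the vitamin K-dependent protein S, was at 1.06 and 318 TPM (4.89), Stc2, a secreted glycoprotein, at 0.678 and 275 TPM (4.74), and Nrn1, neuritin, at 7.72 and 375 TPM (4.44). The day 3 bounds of Cdkn1a, H2afx, Pros1, Stc2 and Nrn1 lay above the naive bounds.

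Without ribosomal proteins, the 15 lowest called genes above 0 in both libraries were led by Ms4a4b (chromosome 19, 11518048 to 11538038 on mm9), a membrane protein of resting T cells, at 1593 TPM in naive cells (above its own bounds, 1313 to 1489) and 81.3 TPM at day 3 (0 to 216), a difference of -4.13. Actn1, an actin cross-linker, was at 456 and 25.2 TPM (-3.73), Add3, an adducin of the membrane skeleton, at 337 and 21.6 TPM (-3.46), and Mbnl1, a splicing regulator, at 681 and 67.8 TPM (-3.15). Shisa5 had the highest level among them after Tmsb10, at 4300 and 645 TPM (-2.72). Gpx1, glutathione peroxidase, was at 737 and 101 TPM (-2.76), and Ctsd, cathepsin D, at 444 and 50.0 TPM (-2.92). Sepp1, a selenium carrier, was at 451 and 48.4 TPM (-2.98), a call that was lost with exact Poisson limits.

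Most markers of other cell types were listed at 0 at day 3. So were most genes, as 6480 of all 20128 were above 0 at day 3 and 12052 in naive cells. The 7 erythroid markers in the tables summed to 6154.5 TPM in naive cells, led by Hba-a2 at 4257 TPM, and 7 of 7 were listed at 0 at day 3. The globin genes share reads. Hbb-b2 and Hbb-b1, at 959 and 240 TPM in naive cells, had no transcript length, so at 0 they could not be called. Beta-s, a globin gene outside this list, went from 1932 TPM, above its own upper bound of 1610, to 0. It was called lower, also with exact limits. Of 11 B cell markers 1 was above 0 at day 3, Cd79b at 86.0 TPM, and Ms4a1 was at 43.1 TPM in naive cells. The list summed to 491 TPM in naive cells and 86.0 at day 3. The 18 myeloid markers summed to 735 and 304 TPM, with Cst3 alone above 0 at day 3. The 9 natural killer cell markers summed to 180 and 0 TPM, and the 5 CD8 T cell markers to 176 and 0 TPM, with Cd8a at 4.50 TPM and Cd8b1 at 76.0 TPM in naive cells. The naive levels of Ms4a1, Cd8a and Cd8b1 lie below the 135 TPM that 3 fragments on 2 kb give at day 3. By the rule 0 of the B cell, myeloid, natural killer and CD8 markers were called, and 2 erythroid markers were called lower. The part of these cells in the results was not tested. Class II genes differed from the other markers in their sum only, at 1348 and 1246 TPM over 7 genes, of which 3 were above 0 at day 3. Cd74, the invariant chain, was at 569 and 672 TPM (bounds at day 3 155 to 1260) and H2-Ab1 at 145 and 432 TPM (75.8 to 758). Neither was called. H2-Aa went from 400 TPM to 0 and was called lower, also with exact limits, and H2-Eb1 went from 142 TPM to 0 without a call.

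The same comparison in NLRP3KO cells used 2 other libraries with the same difference in RNA selection. Nlrp3 was at 0.285 TPM in naive WT and listed at 0 in the other 5 libraries, so these libraries are too shallow to check its loss. Of 7194 genes kept there, 357 were called higher at day 3 (4.96%) and 321 lower (4.46%). Of the 442 genes called higher in WT 143 were called higher in NLRP3KO, 32.4% of the WT genes and 40.1% of the NLRP3KO genes. Of the 272 called lower 138 were called lower, 50.7% of the WT genes and 43.0% of the NLRP3KO genes. Among 676 genes called in WT and kept in both, 597 had the same sign. The share of the same sign over all genes kept in both was not computed, so this count has no baseline. Across 5871 genes kept in both, Pearson's correlation of the differences was 0.458 and Spearman's 0.449, as a description, since genes are not independent replicates.

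Lists differed in how far the 2 genotypes matched. All 13 called glycolysis genes of WT were also called in NLRP3KO, which had 16, as were 12 of the 13 higher IL-2 and IL-4 signalling genes. Of the 13 lower naive and quiescence genes 9 were called in both, and of the 22 higher mitosis genes 12. By contrast, 1 of the 13 called amino acid and one-carbon genes was called in NLRP3KO, Psat1 at 48.7 and 510 TPM (3.15), and 1 of the 8 tRNA synthetase genes, Vars. Asns was at 13.7 TPM in naive NLRP3KO and 58.0 at day 3 (1.52), Shmt2 at 56.2 and 95.9 TPM (0.68), and Slc7a5 at 38.5 and 30.7 TPM (-0.25). Of the 15 called replication genes 3 were called in NLRP3KO, and of the 7 called genes of the Myc list 0. Ribosomal proteins had 28 lower calls in WT and 5 in NLRP3KO, with medians of -1.03 and -0.20. The medians over all kept genes also differed, at 0.48 in WT and 0.07 in NLRP3KO. With 1 library per group these differences between genotypes were not tested.

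**Figure D4:**
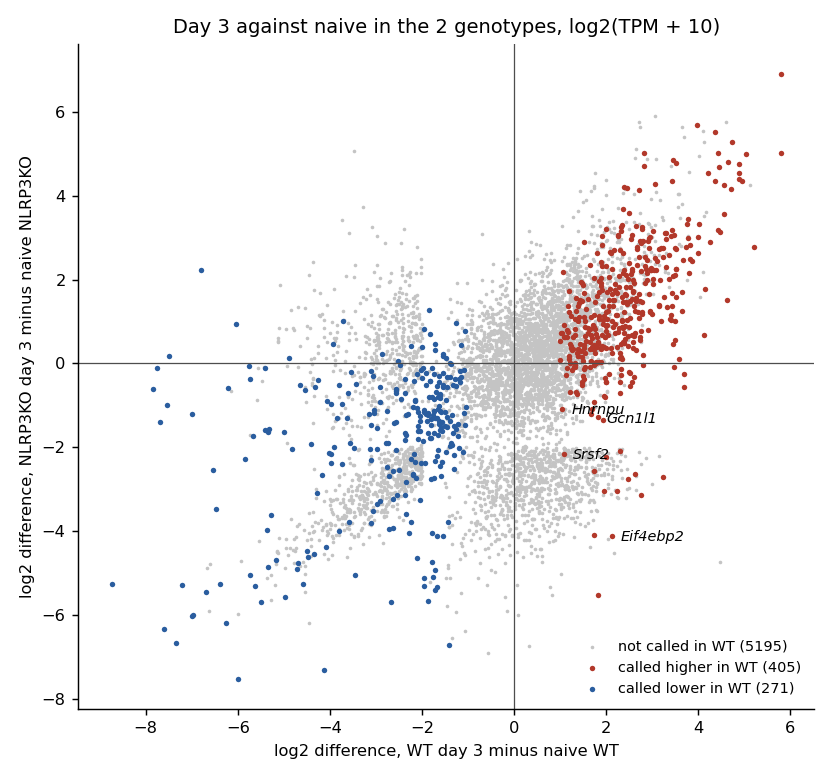
Difference between day 3 and naive in WT (x axis) and in NLRP3KO (y axis), both on log2(TPM + 10), for the 5871 genes kept in both comparisons, with 405 genes called higher in WT in red, 271 called lower in blue and the others in grey. Of these 676 genes 597 have the same sign in both genotypes, and the 4 named genes were called in opposite directions in the 2 genotypes. None of the WT calls of these 4 was robust to scaling. The share of the same sign over all 5871 genes was not computed.

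Values at day 6 of WT culture are given beside those of day 3, since both are set against the same naive library. Irf4 was at 961 TPM at day 6 after 1196 at day 3, Il2ra at 1106 after 1309.5, and Gata3 at 519 after 855. Myc was at 484 TPM after 683, Asns at 329 after 406, and Top2a at 678 after 410. The bounds of day 3 and day 6 overlapped in each of these 6 genes. Cish was at 914 TPM at day 6 after 314, and Lif was listed at 0 after 198. Tcf7 was at 80.6 TPM after 131, and Il7r at 27.4 after 88.6, both below their naive levels of 912 and 303 TPM on both days. Ccr7, which was not called at day 3, was at 137 TPM at day 6 after 544, and Lef1 at 362 after 196, beside 351 in naive cells.

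**Figure D5:**
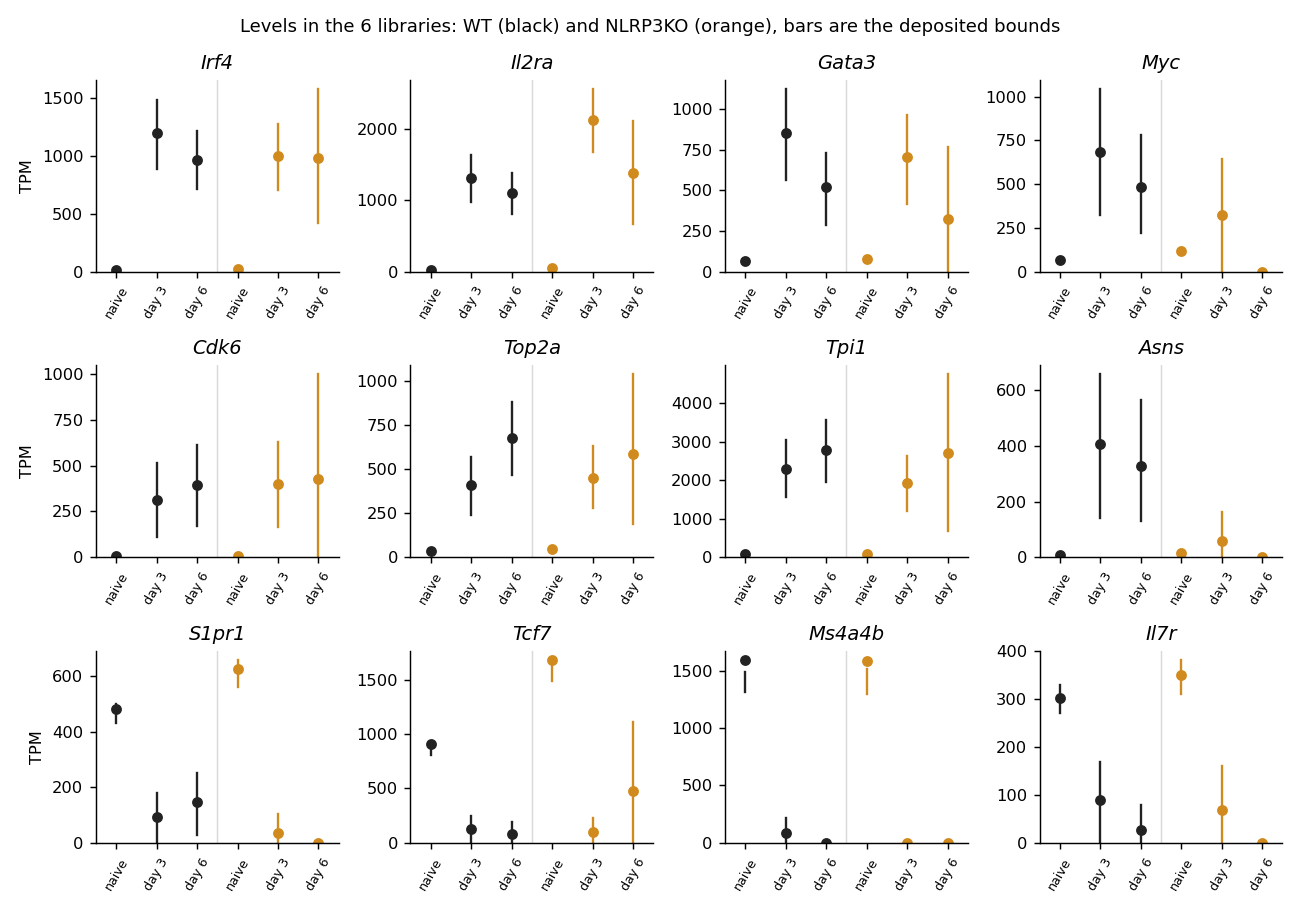
Levels (y axis, TPM, starting at 0) of 12 genes in the 6 libraries (x axis), WT in black and NLRP3KO in orange, with vertical bars for the deposited confidence bounds. Irf4, Il2ra, Gata3, Cdk6, Top2a and Tpi1 are low in both naive libraries and higher at day 3 in both genotypes, Asns is 58.0 TPM in NLRP3KO and 406 in WT at day 3, and S1pr1, Tcf7, Ms4a4b and Il7r are highest in the 2 naive libraries.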

How the data were processed

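RNA sequencing gave 1 gene table per library, 6 libraries in all, with FPKM, its confidence bounds and a status as the authors deposited them, per the file headers. The submitters' processing notes name TopHat, Cufflinks and mm9. No version or annotation is stated there. The tables held 23700 entries each, of which 285 had too little data. Entries of 1 symbol were summed. Genes were kept as protein-coding by matching symbols and synonyms to RefSeq (GRCm38.p6), without histones of the replication-dependent kind, receptor or immunoglobulin segments and models of up to 300 bases. Lars2 was left out after its values were seen, since it would have taken 8.96% of the levels at day 3 and 0.967% in naive cells. With FPKM and 1 library per group no test was run. Fragments were inferred from the deposited bounds, which behave as Poisson quantiles of 2.5% and 97.5%, and the libraries had been normalized to an estimated 4445756 (naive WT) and 608476 (day 3) fragments. In naive WT 221 FPKM lay outside their own bounds. Besides the genes marked above, these included Il2rg, Lat, Gpx1, Gimap6, Thy1 and Eef2. Intervals cover counting error only, as PCR copies carried no molecular identifiers.

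The members and the 38 gene lists were chosen with earlier results of these data known. Named genes were 16 fixed genes, the 15 highest and 15 lowest called genes above 0 in both libraries, up to 4 called members in each direction and the 2 of highest level of each list, the 6 of highest level listed at 0 in the other library, and members of the naive, Th2, activation, signalling and marker lists as values. Promoters were chosen among the called replication and Myc list genes. Transcript lengths came from GENCODE on GRCm38, by symbol, for 98.7% of kept genes. A few genes that the rule names are not reported here. Calls were tested on simulated data, where the planned rule called many unchanged genes lower, reading a 0 as up to 3 fragments far fewer but still some, and exact limits the fewest of these 3. By counting error, calls of lower genes, those listed at 0 above all, are therefore less certain than calls of higher genes. The simulation held no error of scale or RNA selection, so it cannot rank the calls beyond counting error. Of the 442 higher calls 184 were robust to scaling. Alternatives covered scaling, pseudocount, minimum, length, duplicate entries and the call rule. Python 3.11.15, pandas 2.3.3, numpy 2.4.6, scipy 1.17.1 and matplotlib 3.10.9 were used.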

Additional observations from a re-analysis of the deposited data

Results flagged for a closer look

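Of the genes called higher at day 3 in WT, 4 were called lower in NLRP3KO. None of these 4 WT calls was robust to scaling. Eif4ebp2, an inhibitor of cap-dependent translation, had a difference of 2.12 in WT, from 106 to 496 TPM, while in NLRP3KO it was at 163 TPM in naive cells and listed at 0 at day 3. Srsf2, a splicing factor, had 1.09 in WT and -2.16 in NLRP3KO, at 309 and 669 TPM against 560 and 118 TPM. Hnrnpu had 1.05 and -1.08, and Gcn1l1, which senses stalled ribosomes, 1.82 and -1.29. The difference between the genotypes was not tested, as each group is 1 library.

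RNAs left out of the comparison stood far above their naive level in the WT day 3 library. Rn45s had an FPKM of 57645 against 10783, Rpph1, the RNA of RNase P, 7700 against 336, and Rmrp, the RNA of RNase MRP, 2106 against 245. The 65 replication-dependent histone genes summed to 2945 against 377, and 58 of them were above 0 at day 3. These RNAs lack a poly(A) tail, and RNA selection differed between the 2 libraries, so culture and selection cannot be told apart for them.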

How the results depend on the processing

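No paired analysis was possible because each group is 1 library, and leaving out a replicate was not possible either. Each result was recomputed under the alternatives, of which the reading of 0 as up to 3 fragments, the exact limits, the inclusion of Lars2 and the midpoint of the bounds were chosen after seeing the data. Against 442 genes higher and 1343 lower, scaling by the median ratio over 6 libraries gave 247 higher, by the median ratio of the 2 libraries 184 higher and 2365 lower, by the trimmed mean 212 and 2144, and FPKM as deposited 24 and 6936. For genes called lower at day 3, a minimum of 10 TPM or none gave 2554 and one of 100 TPM 474. Transcripts of 1000 bases or more gave 279 higher. A 2-fold difference alone gave 2366 higher, a 4-fold one with bounds apart 286 higher, and a value above 0 in both libraries 187 lower. Exact limits gave 731 higher and 176 lower. With 0 read as up to 3 fragments 272 were lower, and the other rescalings then gave 247 higher and 708 lower over 6 libraries, 184 and 1047 with the 2, 212 and 868 with the trimmed mean, 361 lower without ribosomal proteins and the 20 highest genes, and 5989 lower as deposited. The other counts, such as 394 higher with Lars2 included, lay within 1.5 times 442 and 1343. Relative to the median of all kept genes, no called gene of the named set changed sign under the alternatives run. No list with a median at least 1 apart did so either. The Myc, chaperonin, PI3K, Treg, proteasome and translation factor lists, which lay nearer to that median, did under some. A rescaling moves a gene and that median nearly alike, so the scaling alternatives could hardly change these signs and say little about them. By size, 777 values of named genes were counted as moved and 2383 as the same, and 77 and 362 values of lists. At day 3, 3 fragments on 2 kb correspond to 135 TPM, so a gene of that length listed at 0 at day 3 could be called lower only where its naive level lay above it.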
